A study of Mus musculus with 4 samples.

Results

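Snf2h is the ATPase encoded by Smarca5, and its polarity profile was examined here at its own gene and at the genes of 8 partner subunits in mouse embryonic stem cells with and without Snf2h. The members were chosen by name: Smarca5, Baz1a, Baz1b, Baz2a, Bptf, Chrac1, Pole3, Rsf1 and Cecr2. For each gene, the windows were taken whose midpoint lies within 400 kb of its GRCm38 interval, which gave 312 of the 109033 windows of the deposited table, between 32 windows at Chrac1 and 37 at Baz1a. The cells were of line 129S6/SvEvTac, cultured with serum and LIF on gelatin. The 2 wild-type (WT) libraries carry the genotype label wildtype and the 2 knockout (KO) libraries the label SNF2KO, and each genotype was cultured in duplicate. Neither how the gene was disrupted nor whether the KO cultures come from a single clone is given in the sources used here.

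Snf2h uses ATP to slide and space nucleosomes, and its partner subunit sets where and how it works. Baz1a (ACF1) forms the ACF complex, which becomes CHRAC with the small histone-fold proteins Chrac1 and Pole3. Baz1b (WSTF) forms the WICH complex, found at sites of DNA synthesis, and Baz2a (TIP5) forms NoRC, which acts on ribosomal DNA. Rsf1 forms RSF, which deposits and spaces nucleosomes. Bptf of NURF and Cecr2 of CERF are best known as partners of the related ATPase Snf2l. TrAEL-seq reads the 3′ ends of DNA strands, and the strand imbalance of the captured ends follows the direction of replication forks. A change of its sign along a chromosome therefore marks a place where forks of one direction give way to forks of the other. The strand counted as positive is not given in the sources used here, so rises and falls are reported without calling them initiation or termination.

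Values are the deposited strand imbalance, called polarity and given in percentage points (points), in windows of 100 kb every 25 kb; before and after a gene mean towards lower and higher coordinates. It cannot exceed 50 points in either direction. The SD over all 23672 autosomal windows that do not overlap ranged from 12.8 to 14.6 points in the WT libraries and from 14.5 to 19.5 points in the KO libraries. KO replicate 1 was the library with the widest swings, which touches every KO value below. The table gives no read counts, so depth is unknown. A window averages over 100 kb, and neither the expression of these genes nor a deletion smaller than a window can be read from it.

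Promoter sequence was matched in the RefSeq table of GRCm38.p6 for 5 of the 9 genes. The 3 shown here belong to genes whose start lies inside a rise of polarity and hold the most and the fewest CG dinucleotides of the 5; capitals mark CG dinucleotides in the 250 bases before the gene start, written 5′ to 3′ on the strand of the gene. Smarca5 lies at chr8:80739460-80739709 (minus strand), Bptf at chr11:107132148-107132397 (minus strand) and Pole3 at chr4:62525015-62525264 (minus strand).
Smarca5: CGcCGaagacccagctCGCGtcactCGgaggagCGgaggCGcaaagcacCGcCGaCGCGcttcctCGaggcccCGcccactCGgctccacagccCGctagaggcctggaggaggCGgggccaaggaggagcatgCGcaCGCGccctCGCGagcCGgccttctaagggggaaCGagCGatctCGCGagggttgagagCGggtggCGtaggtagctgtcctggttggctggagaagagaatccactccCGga
Bptf: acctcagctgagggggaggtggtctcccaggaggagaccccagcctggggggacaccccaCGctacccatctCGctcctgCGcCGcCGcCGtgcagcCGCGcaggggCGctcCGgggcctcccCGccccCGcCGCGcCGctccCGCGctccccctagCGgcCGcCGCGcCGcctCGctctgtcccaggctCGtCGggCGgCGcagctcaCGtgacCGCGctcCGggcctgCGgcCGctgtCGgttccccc
Pole3: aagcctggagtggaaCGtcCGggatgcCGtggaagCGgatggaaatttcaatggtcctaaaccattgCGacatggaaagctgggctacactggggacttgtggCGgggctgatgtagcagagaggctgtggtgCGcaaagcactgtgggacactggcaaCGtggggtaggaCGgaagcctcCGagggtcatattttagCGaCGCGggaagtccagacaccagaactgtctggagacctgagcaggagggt
The Bptf sequence holds 34 CG dinucleotides, the Smarca5 sequence 29 and the Pole3 sequence 13. The other matched sequences, of Baz1b and Baz2a, hold 20 each. The median over 32851 promoter sequences of the same length was 6, and 6.78% of them hold at least as many as Smarca5, 3.53% as Bptf and 31.5% as Pole3. The GC-box letters GGGCGG, searched on both strands, occur in Smarca5, Baz1b, Baz2a and Bptf and are not among the letters of the Pole3 sequence; 32.7% of all promoter sequences hold them. CG dinucleotides inside a GC box were counted under both motifs.

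The Smarca5 locus had a value in every window of every library. Of its 34 windows, 0 were without a value in WT and 0 in KO, and this includes the 6 windows that overlap the gene interval (chromosome 8, 80699943 to 80739459). The window centred on the gene, 80675001 to 80775000, had polarity of -15.4 and -14.6 points in WT replicates 1 and 2. It had -24.0 and -19.7 points in KO replicates 1 and 2. Both KO libraries thus lay below both WT libraries. The difference of -6.88 points (SE 4.51) did not pass the threshold (limma adjusted p = 0.545), and the exact permutation p was 0.333, the smallest that 2 against 2 libraries allow.

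Smarca5 sits at the foot of the largest rise found at any of the 9 loci. Rises were called on the mean of all 4 libraries, without regard to genotype, as stretches over which a running mean of 5 windows climbs by at least 1 SD of that mean profile. The rise at Smarca5 ran from 80650000 to 81075000, over 425 kb and past Gab1, which encodes an adaptor of growth factor receptors, and the deubiquitinase gene Usp38. It measured 51.8 and 41.0 points in WT, against 74.0 and 52.5 points in KO. The KO mean of 63.3 ± 15.3 points exceeded the WT mean of 46.4 ± 7.65 points (SD, n = 2 each) by 16.9 points, which is above the pooled replicate SD of 12.1 points (exact permutation p = 0.333). KO replicate 2 lay only just above WT replicate 1. Divided by the SD of its library, the rise was 3.54 and 3.19 in WT, against 3.81 and 3.61 in KO.

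**Figure D1:**
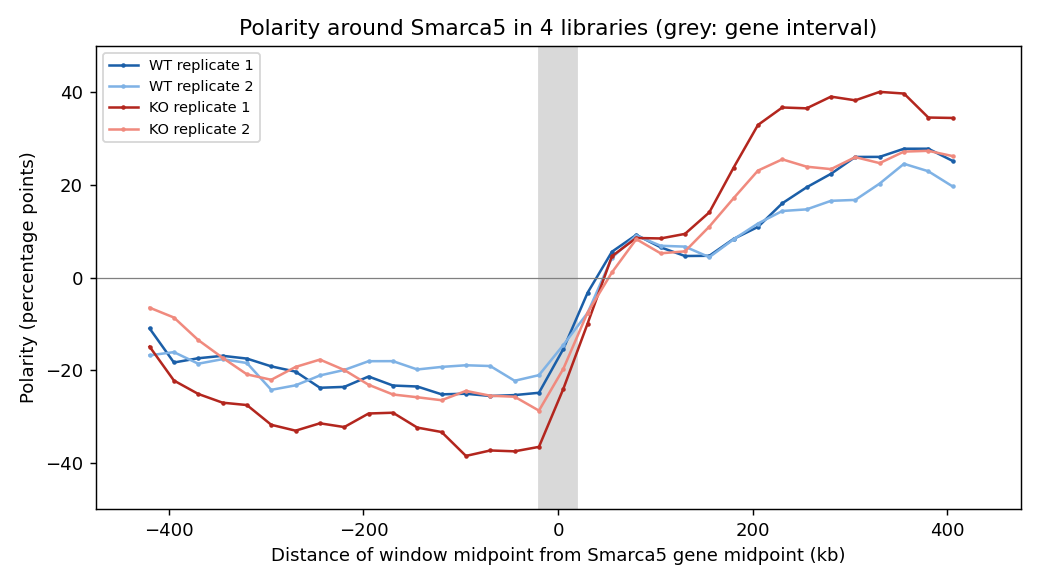
Polarity in percentage points (y axis) in each 100 kb window against the distance of its midpoint from the Smarca5 gene midpoint in kb (x axis), with 1 line per library and the gene interval in grey. In the gene window both KO lines lie below both WT lines. All 4 lines climb to between 8.29 and 9.22 points in the window from 80750001, beyond the gene. The KO lines then separate upwards from the WT lines beyond the plateau.

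The rise at Smarca5 had a lower and an upper step. In the lower step, which crosses the gene, polarity climbed from -24.9 and -21.1 points in WT, and from -36.5 and -28.7 points in KO, in the window from 80650001. In the window from 80750001 it had reached 9.22 and 9.07 points in WT, against 8.55 and 8.29 points in KO. The 4 libraries therefore met within 1 point at the top of this step, although they had started apart. The climb was 34.1 and 30.1 points in WT, against 45.1 and 37.0 points in KO (exact permutation p = 0.333). The running mean of 5 windows crossed 0 at 33.4 and 37.8 kb upstream of the Smarca5 start in WT. In KO it crossed at 44.8 and 48.0 kb upstream. The genotype difference of 10.7 kb in the running mean was larger than the replicate SD of 2.72 kb (exact permutation p = 0.333). It was smaller than the 25 kb spacing of the windows. In single windows, all 4 libraries were below 0 in the window from 80700001 and above 0 in that from 80725001.

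Over the whole Smarca5 locus, polarity ranged from -25.6 to 27.8 points in WT replicate 1, from -24.2 to 24.6 in WT replicate 2, from -38.5 to 40.1 in KO replicate 1 and from -28.7 to 27.4 in KO replicate 2.

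The upper step lay beyond the gene, and it too was larger in both KO libraries than in both WT libraries. In the window 80875001 to 80975000, polarity was 10.9 and 11.7 points in WT, against 32.9 and 23.1 points in KO. Both KO libraries were higher, and the difference was 16.7 points (SE 4.74), yet it did not pass the threshold over all windows (limma adjusted p = 0.196). Over the 100 kb between the windows from 80800001 and 80900001, polarity rose by 11.4 and 7.69 points in WT and by 27.3 and 19.9 points in KO. This stretch was chosen after its values were seen. KO lay above WT in 6 successive overlapping windows here, from 80825001 to 81050000; over all windows, 22.2% had both KO values above both WT values. In units of the SD of each library, the values in the window from 80875001 were 0.756 and 0.922 in WT, against 1.70 and 1.60 in KO, with a limma adjusted p of 0.122. Without KO replicate 2 the limma adjusted p was 0.000112, in a fit that called 19.8% of all windows and 13 of the 34 at Smarca5. Without KO replicate 1 it was 0.0857, in a fit that called 5.69% of all windows and none of the 34. Each of these fits has 1 KO library left: its spread comes from the 2 WT libraries and the prior over all windows, and the lone KO library is assumed to vary like them, here and wherever a KO library is left out. The window has the lowest adjusted p of the locus and was chosen for it, as were those given without a KO library at the other loci; of its 10 alternative fits 3 passed, 1 of them the fit without KO replicate 2.

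Polarity in the window centred on each gene was compared next, and the 9 genes covered both signs. In WT it was highest at Pole3 (12.5 ± 2.22 points), Rsf1 (10.5 ± 2.68 points) and Baz1b (10.2 ± 4.90 points; SD, n = 2 throughout), whose replicates overlap. Cecr2 (3.60 ± 1.55 points), Bptf (1.59 ± 7.99 points), Baz1a (0.819 ± 0.444 points) and Chrac1 (-2.67 ± 5.84 points) followed, each overlapping its neighbour in this order. Baz2a (-11.9 ± 0.359 points) and Smarca5 (-15.0 ± 0.607 points) were lowest, separate from Chrac1 and from each other. In KO the highest mean was at Rsf1 (19.9 ± 1.87 points), whose libraries overlap those at Baz1b (18.1 ± 3.57 points), and the lowest again at Smarca5 (-21.9 ± 3.06 points).

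**Figure D2:**
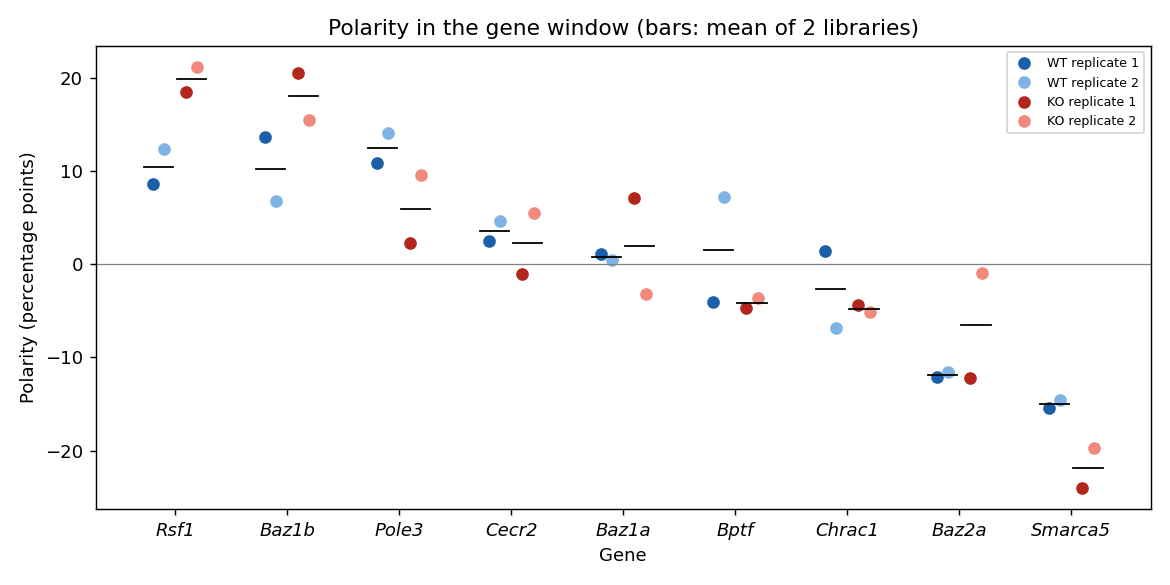
Polarity in percentage points (y axis) in the window nearest the midpoint of each gene (x axis, ordered by the mean of the 4 libraries); points are libraries and bars the mean of 2 libraries of a genotype. The KO points lie apart from the WT points at Rsf1, Baz1b, Pole3 and Smarca5 and overlap them at the other genes.

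The genotypes differed at the gene windows by between -6.88 points at Smarca5 and 9.39 points at Rsf1. Of the 9 gene windows, 0 passed the threshold in limma and 0 had an unadjusted p-value under 0.05; among 20132 autosomal protein-coding genes the shares were 0.0298% and 11.1%. KO libraries lay on one side of both WT libraries at 4 of the 9 genes (44.4%), against 45.3% of all these genes. At Rsf1 polarity was 8.58 and 12.4 points in WT, against 18.5 and 21.2 points in KO, the largest difference of the 9 (SE 4.52; limma adjusted p = 0.418). At Baz1b it was 13.7 and 6.76 points in WT, against 20.6 and 15.5 points in KO. At Pole3 the KO libraries were lower, with 2.33 and 9.59 points against 10.9 and 14.1 points in WT. The signs of the small differences at Baz1a, Baz2a, Chrac1 and Cecr2 depended on single libraries: Baz1a changed from 1.17 to -3.99 points without KO replicate 1, Cecr2 from -1.33 to 1.96 points without KO replicate 1, Baz2a from 5.31 to -0.299 points without KO replicate 2 and Chrac1 from -2.08 to 2.05 points without WT replicate 1. The median absolute difference of the 9 genes was 5.76 points, beside 4.25 points over all protein-coding genes.

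The CHRAC genes came first among the partners. Baz1a, which encodes the large subunit of ACF and CHRAC, spans 121.4 kb on chromosome 12 (54892989 to 55014371). A sharp rise from 54625000 to 54850000 lay before the gene, over Snx6, a sorting nexin gene. In the window from 54650001 polarity was -22.6 and -13.2 points in WT, against -36.5 and -30.2 points in KO. Only 50 kb further, in the window from 54700001, it was 10.1 and 7.89 points in WT, against 10.5 and 13.9 points in KO. All 4 libraries were above 0 there, and both KO libraries were now the higher. KO lay below WT in 9 successive overlapping windows before this step. Over all windows, 22.5% had both KO values below both WT values. Among these 9, the limma adjusted p was lowest at 0.237, in the window from 54650001. For that window it was 0.00121 without KO replicate 2, a fit that called 7 Baz1a windows and 19.8% of all windows, and 0.0700 without KO replicate 1. The whole rise was 37.3 and 30.3 points in WT, against 56.0 and 41.5 points in KO; KO minus WT was 14.9 points, with a pooled replicate SD of 8.03 points (exact permutation p = 0.333). Through the gene itself polarity then fell in all 4 libraries, from above 0 to between -5.94 and 0 points in the window from 55000001.

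The Baz1a locus was the only one of the 9 with windows that had no value. They lay from 55075001 to 55250000, 60.6 kb beyond the higher end of the gene, over the Srp54 and Fam177a gene copies (Srp54a, Srp54b, Srp54c, Fam177a and Fam177a2). In each WT library 3 of the 312 member windows were without a value (0.962%), and in each KO library 4 were (1.28%). Over the autosomes the shares were 3.44% and 3.48% in WT, against 3.71% and 3.83% in KO. The window present only in WT, 55075001 to 55175000, had -15.2 and -18.4 points. Its neighbour from 55050001 had -2.88 and -3.41 points in WT, against -9.18 and -12.5 points in KO. On windows spaced 100 kb the genotypes had equal numbers without a value. The part of read depth or of repeated sequence in these gaps was not tested.

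Chrac1 (chromosome 15, 73090412 to 73094075) is a gene of 3.66 kb that encodes a histone-fold subunit, and it lay in the middle of a rise. Polarity just before it was -31.7 and -23.6 points in WT, against -36.9 and -26.6 points in KO in the window from 72950001. In the gene window it was 1.46 and -6.80 points in WT, against -4.40 and -5.10 points in KO. The rise was 36.3 and 28.2 points in WT, against 45.9 and 33.8 points in KO, and overlapped between the genotypes (difference 7.64 points, replicate SD 7.30 points; exact permutation p = 0.667). The running means of the 4 libraries crossed 0 within 24.6 kb of each other. At the edge of the locus, in the window from 73425001, the KO libraries had 5.85 and 14.0 points and the WT libraries -4.07 and -1.21 points (limma adjusted p = 0.307). Before the rise, over Trappc9, a gene of vesicle trafficking, KO was lower in 5 successive windows from 72775001 to 72975000. The means were -22.7 and -21.2 points in WT, against -33.3 and -27.7 points in KO (lowest limma adjusted p 0.379). These windows overlap and were picked for both KO values lying below both WT values, as in 22.5% of all windows. The window from 73425001 had a limma adjusted p of 0.00726 without KO replicate 1, a fit that called 5.69% of all windows and left KO replicate 2, the library further from WT there, and of 0.147 without KO replicate 2.

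Pole3 (chromosome 4, 62523798 to 62525014) encodes the other histone-fold subunit, which is also a subunit of DNA polymerase epsilon, the leading-strand polymerase. Its start lay inside a rise of 425 kb that measured 36.0 and 34.1 points in WT, against 49.7 and 32.9 points in KO. KO replicate 2 was thus the lowest and KO replicate 1 the highest of the 4 (exact permutation p = 1). Divided by the SD of each library, the rise was 2.46 and 2.66 in WT, against 2.56 and 2.26 in KO. In the window from 62525001, which begins within the gene, polarity was 20.0 and 16.6 points in WT, against 13.6 and 11.0 points in KO. The KO libraries lay below both WT libraries in 4 successive windows from 62475001 to 62650000, where KO minus WT averaged -7.31 points, as a description, since the windows were picked for lying below, and the lowest limma adjusted p among them was 0.451. Over all windows, 22.5% had both KO values below both WT values. Beyond the end of the rise KO was the higher: the window from 62875001, with the lowest limma adjusted p of the locus (0.428), had 13.2 and 10.7 points in WT, against 28.6 and 15.6 points in KO. KO minus WT was 10.1 points there, and it was 3.58 points without KO replicate 1 (limma adjusted p = 0.712) and 16.6 points without KO replicate 2 (limma adjusted p = 0.00388).

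Baz1b (chromosome 5, 135187323 to 135246131), the WICH subunit, lay in a gene-rich stretch on a broad hump of positive polarity between a rise and a fall. The rise before it, from 134875000 to 135050000, was 25.9 and 21.4 points in WT, against 38.2 and 25.6 points in KO. KO replicate 2 fell within the WT range (exact permutation p = 0.667). The trough before that rise was deeper in KO: the window from 134775001 had -14.0 and -10.6 points in WT, against -30.0 and -20.8 points in KO (limma adjusted p = 0.296). That window had a limma adjusted p of 0.00199 without KO replicate 2, a fit that called 19.8% of all windows, and of 0.261 without KO replicate 1; of its 10 alternative fits 1 passed.

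Baz2a (chromosome 10, 128091370 to 128129303), the NoRC subunit, was the only locus whose largest rise had a lower mean in KO in points. In units of the SD of each library, the mean at Pole3 was lower in KO too. The Baz2a rise, from 128000000 to 128275000, was 18.7 and 22.9 points in WT, against 19.5 and 11.5 points in KO. KO minus WT was -5.30 points, with a pooled replicate SD of 4.52 points (exact permutation p = 0.667). It was also the smallest rise of the 8. The running mean crossed 0 within this rise in both WT libraries and in neither KO library. Past its end, in the window from 128250001 over Stat2, an interferon signalling gene, and the end of Timeless, a gene of the replication fork, polarity was 1.66 and 4.97 points in WT, against -8.37 and -4.10 points in KO (limma adjusted p = 0.413). The lowest limma adjusted p of the locus was 0.357, in the window from 127775001, with 12.2 and 8.52 points in WT, against 21.6 and 20.8 points in KO. Far from the gene, over 6 successive windows from 127675001 to 127900000, KO was higher, with means of 23.8 and 21.2 points beside 15.5 and 14.7 points in WT. These windows overlap and were picked for both KO values lying above both WT values, as in 22.2% of all windows.

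Rsf1 (chromosome 7, 97579870 to 97692782), the RSF subunit, showed the widest separation of the genotypes. All 4 libraries rose towards the gene, from 97300000 to 97600000, by 34.6 and 35.9 points in WT, against 53.5 and 38.6 points in KO. At the lower end of the gene, in the window from 97550001, they were 12.3 and 13.4 points in WT, against 18.0 and 16.9 points in KO. Through the gene the WT libraries fell below 0, to -2.00 and -5.24 points in the window from 97650001, whereas the KO libraries stayed at 12.5 and 6.49 points. The separation was widest in the window 97850001 to 97950000, over the kinase gene Pak1. Polarity there was 7.40 and 3.73 points in WT, against 31.9 and 19.0 points in KO, so that KO minus WT was 19.9 points (SE 4.97; limma adjusted p = 0.154). KO lay above WT in 16 successive overlapping windows, from 97550001 to 98025000, by 13.6 points on average. This is a description only, since these windows were picked for lying above. Over all windows, 22.2% had both KO values above both WT values.

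The window at Pak1 did not pass the threshold in the plain fit, and other fits were divided. With limma's trend and robust options its adjusted p was 0.0290, and 3 of the 36 Rsf1 windows passed; 1.18% of all windows spaced 25 kb passed under those options. After standardising each library it was 0.0564. In units of the SD of each library, the values were 0.514 and 0.303 in WT, against 1.65 and 1.32 in KO. Without KO replicate 1 the difference was 13.4 points (limma adjusted p = 0.0429), and without KO replicate 2 it was 26.3 points (limma adjusted p = 1e-06); these fits, with 1 KO library each, called 5.69% and 19.8% of all windows. Over its 10 alternative fits the adjusted p ranged from 1e-06 to 1.00, and 5 of them passed, these 2 included.

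Bptf (chromosome 11, 107033081 to 107132147), the large subunit of NURF, lay inside a modest rise between a fall on either side. That rise, from 106950000 to 107250000, was 20.7 and 20.1 points in WT, against 26.8 and 24.0 points in KO. Both KO libraries were higher, by 5.01 points on average beside a pooled replicate SD of 1.43 points (exact permutation p = 0.333). Divided by the SD of each library, the genotypes overlapped, with 1.41 and 1.57 in WT, against 1.38 and 1.65 in KO. Within the gene the WT libraries disagreed: the gene window had -4.06 points in WT replicate 1 and 7.23 points in WT replicate 2, and -4.73 and -3.62 points in KO. The 0-crossing of the running mean in this rise varied over 140.8 kb between libraries. A higher rise, of 39.0 points in the mean profile, had its midpoint 442.4 kb past the Bptf midpoint, at the edge of the locus. It was 34.4 and 33.4 points in WT, against 49.3 and 38.8 points in KO.

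Cecr2 (chromosome 6, 120666314 to 120771191), the CERF subunit, lay in the flattest of the 9 profiles. No rise of 1 SD had its midpoint within 400 kb of it. The SD of polarity over its 36 windows was 5.59 and 5.37 points in WT, against 9.16 and 8.999 points in KO, with no overlap (difference 3.60 points, replicate SD 0.133 points; exact permutation p = 0.333). The libraries resembled each other least here: Pearson's r over the 36 overlapping windows was 0.721 between the WT libraries, 0.629 between the KO libraries and as low as 0.298 between WT replicate 2 and KO replicate 2. At Smarca5 the lowest such r between any pair was 0.971, over 34 windows. These windows overlap and are no replicates. In the window from 121025001 both KO libraries were lower, with -11.5 and -13.4 points against -2.32 and 0.877 points in WT (limma adjusted p = 0.324).

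**Figure D3:**
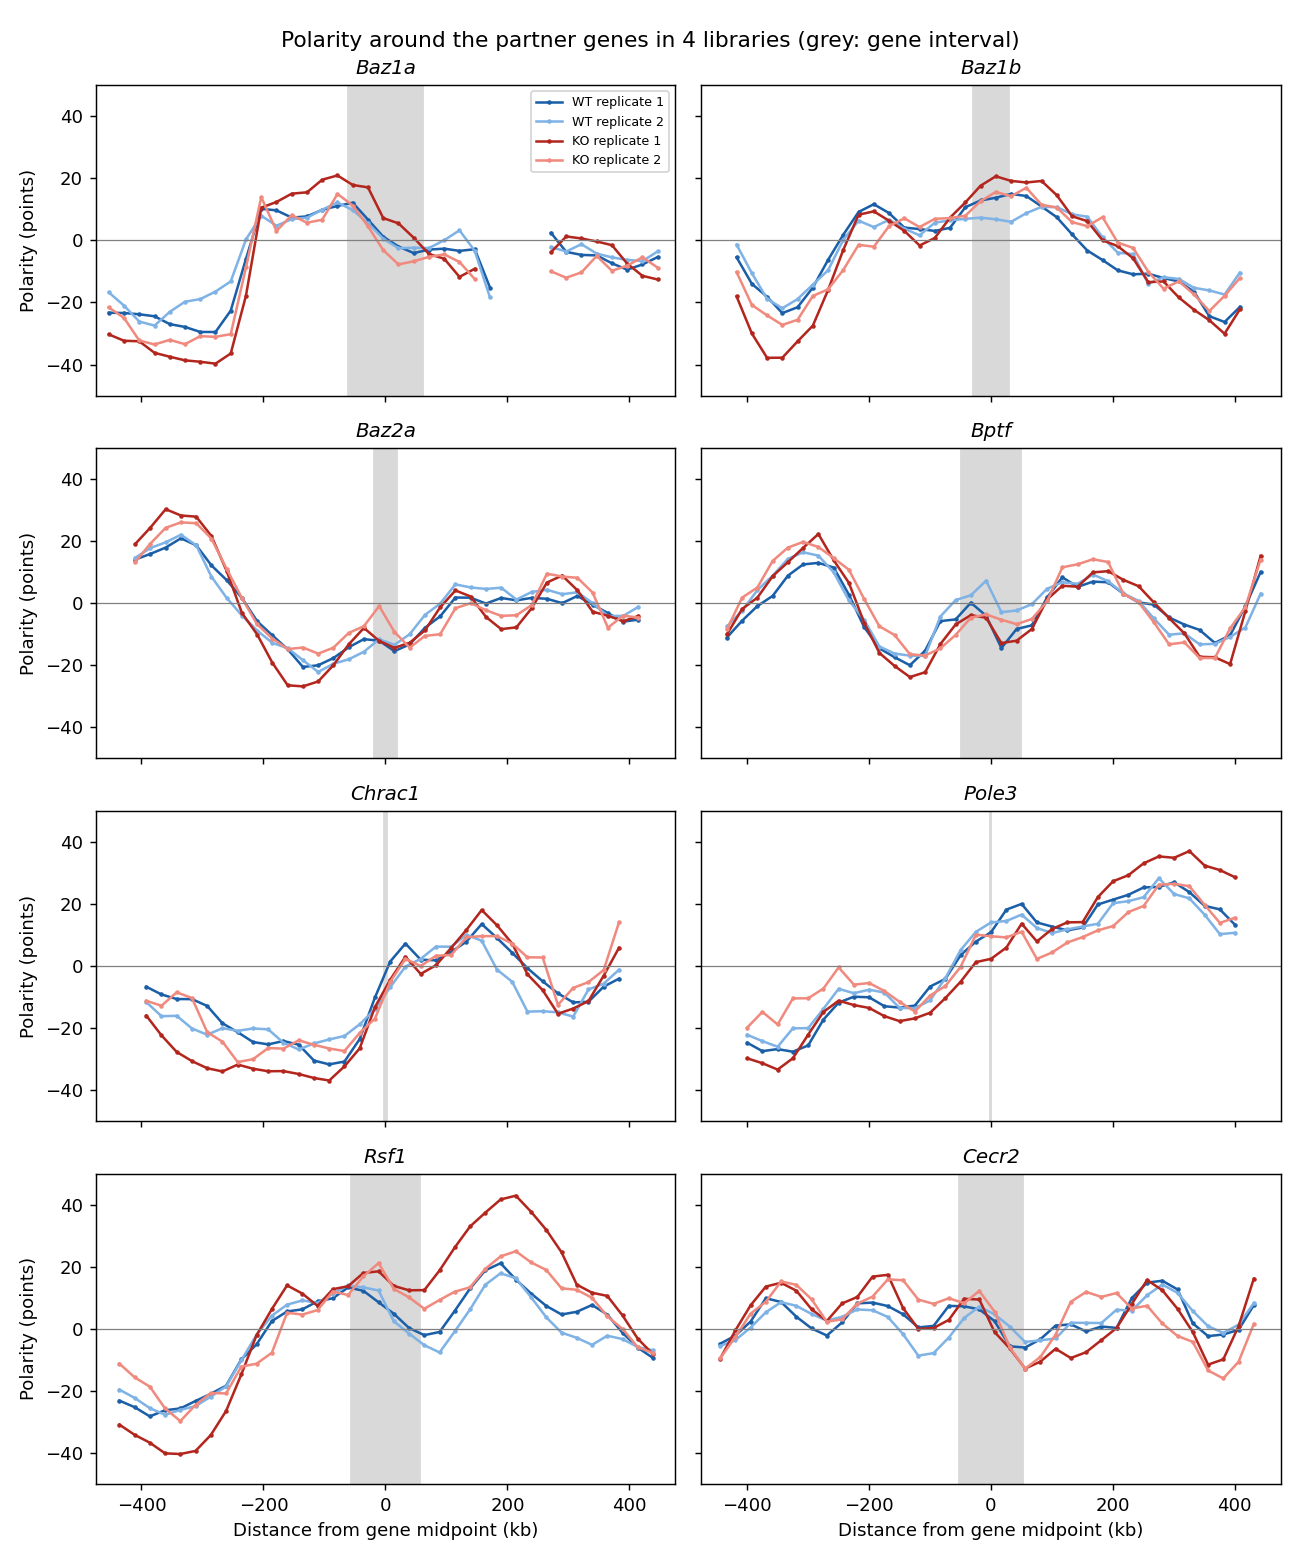
Polarity in percentage points (y axes) against distance from the gene midpoint in kb (x axes) at the 8 partner genes, with 1 line per library and the gene interval in grey; the gap at Baz1a is where windows have no value. KO lines run above WT lines in 16 successive windows from 97550001 to 98025000 at Rsf1, and below them in 9 successive windows from 54475001 to 54775000 at Baz1a. These windows overlap and were picked for this. Over all windows, 22.2% had both KO values above both WT values and 22.5% below.

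The size of the rises was then compared over the loci. Of the 9 loci, 8 had at least 1 rise, and the largest of each was averaged within a library. This average was 34.4 and 30.9 points in WT, against 48.3 and 34.4 points in KO. WT replicate 1 and KO replicate 2 were all but equal. KO minus WT was 8.70 points, above the pooled replicate SD of 7.15 points (exact permutation p = 0.333), and it was 15.1 points without KO replicate 2 and 1.71 points without KO replicate 1. Divided by the SD of each library, the same rises were 2.35 and 2.41 in WT, against 2.48 and 2.37 in KO; KO minus WT was 0.0458, with a pooled replicate SD of 0.0633, and it turned to -0.0326 when rises were called again on that scale. In points, KO replicate 1 was the highest library at every one of the 8 genes except Baz2a. Divided by the SD of each library, it was not the highest at Rsf1, Pole3, Chrac1 and Bptf either.

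**Figure D4:**
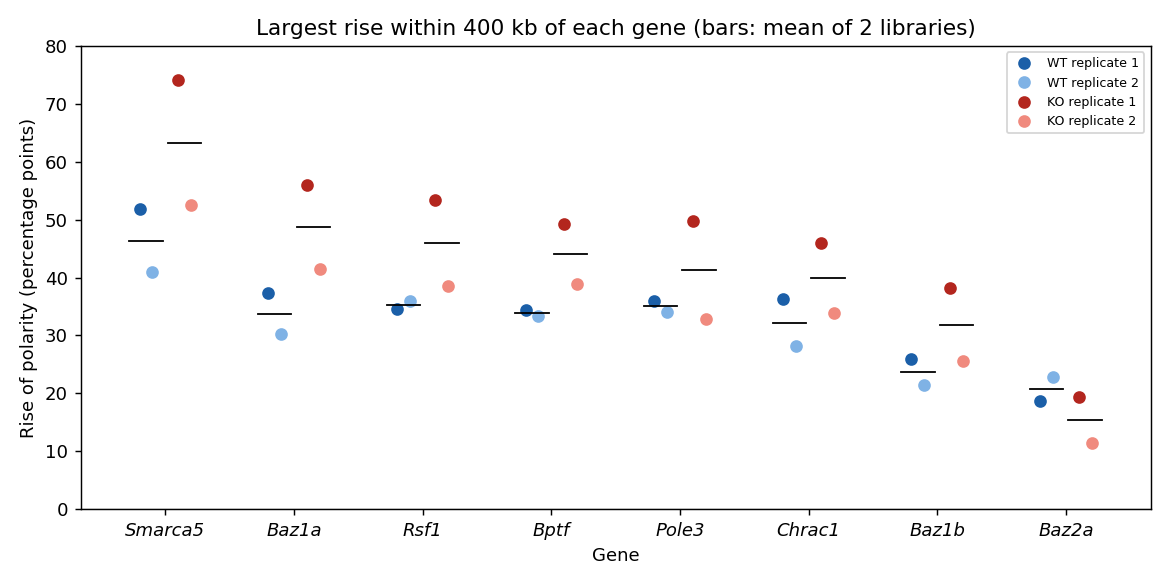
Height in percentage points (y axis) of the largest rise whose midpoint lies within 400 kb of each gene (x axis); points are libraries and bars the mean of 2 libraries. KO replicate 1 reaches 74.0 points at Smarca5, and only at Baz2a is the KO mean below the WT mean.

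Amplitude was also measured within the loci. The SD of polarity over the windows of a locus, averaged over the 9 loci, was 13.02 and 11.7 points in WT, against 19.0 and 13.9 points in KO (difference 4.06 points, replicate SD 2.61 points; exact permutation p = 0.333), and KO minus WT was 1.53 points without KO replicate 1 and 6.58 points without KO replicate 2. The KO to WT ratio of this mean was 1.33. By locus the ratio ran from 1.05 at Pole3 to 1.66 at Cecr2, with 1.39 at Smarca5 and 1.47 at Rsf1. Relative to the SD of the library, the mean was 0.890 and 0.914 in WT, against 0.974 and 0.957 in KO, again with no overlap (KO minus WT 0.0638, replicate SD 0.0148; exact permutation p = 0.333). On that scale Pole3 went the other way, with 1.26 and 1.27 in WT, against 1.17 and 0.935 in KO, and Baz2a had means of 0.848 in WT and 0.831 in KO.

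Window by window, the shares of member windows were near those of the whole table. Of 75 member windows that do not overlap, 0 passed an adjusted p-value of 0.05 in limma, and 9 had an unadjusted p-value under 0.05. Over all 23672 such windows the shares were 0.0549% and 12.2%. Among the 308 overlapping member windows with a value in every library 0 passed, against 0.0760% of all. An unadjusted p-value under 0.05 was found in 37 of the 308, against 12.1% of all overlapping windows. Of these 37 windows, 13 were at Rsf1 and 6 each at Smarca5 and Baz1a, and none at Bptf or Pole3. Without KO replicate 2, 15 of the 75 windows passed (20.0%), as did 20.2% of all windows, while 0 of the 75 passed without each of the other libraries. The fit without KO replicate 1 called 1371 of all 23672 windows, and on overlapping windows it called 9 of the 308 (2.92%), against 5.69% of all. The median absolute difference was 4.31 points over the 308 member windows and 4.45 points over all. KO lay above both WT libraries in 68 of the 308 windows (22.1%) and below both in 73 (23.7%).

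The members were then set beside other genes. Of the 9 intervals, 6 overlap a rise, those of Smarca5, Baz2a, Bptf, Chrac1, Pole3 and Rsf1, which is 66.7%; of 20665 autosomal protein-coding genes 49.6% do. The members are longer, with a median of 58.8 kb beside 17.5 kb over all these genes, and the part of length in this share was not tested. The median distance from gene midpoint to the nearest midpoint of a rise was 126.2 kb for the members and 164.0 kb for all. The loci held from 5 protein-coding genes at Smarca5 and Chrac1 to 39 at Baz2a, with a median of 15, which was also the median around all genes. Likeness to the Smarca5 profile was sought only among protein-coding genes on other chromosomes, in genome orientation. Pearson's r was taken over 33 windows in each of 4 libraries (132 values). It was highest at Spats1 on chromosome 17 (r = 0.971), followed by Togaram1 on chromosome 12 (r = 0.970) and Mras on chromosome 9 (r = 0.969). The median r over 18229 genes was 0.264.

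Other chromatin genes were read at their gene windows from a list of 38. In limma, 0 of the 38 rose and 0 fell past the threshold, against 0.0298% of gene windows over the autosomal protein-coding genes, a background that leaves out X, where 5 of the 38 lie; an unadjusted p-value under 0.05 was found at 2, against 11.1% of those autosomal genes, and KO lay on one side of both WT libraries at 14, against 45.3%. Among 5 other ISWI-related genes the widest difference was at Smarca1, the X-linked gene of the ATPase Snf2l, with -23.0 and -21.2 points in WT, against -38.5 and -31.2 points in KO (limma adjusted p = 0.326 in the table with X). The highest of these was Rbbp4, a histone-binding subunit of NURF, at 5.22 points. Among 23 other remodelling ATPases the differences ran from -9.14 points at Shprh to 9.82 points at Smarcad1. For the polymerase epsilon partners of Pole3 they ran from -9.77 points at Pole2 to -2.89 points at Pole. Pole2 had 1.21 and -3.26 points in WT, against -8.92 and -12.7 points in KO. Among 7 CTCF and cohesin genes they ran from -5.04 points at Smc1a to 7.84 points at Stag2.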

How the data were processed

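TrAEL-seq was performed on 2 WT and 2 Snf2h KO mouse embryonic stem cell libraries. Per the submitters' processing notes, reads were trimmed with Trim Galore 0.6.5 and aligned with Bowtie2 2.4.1, and per the file headers they were aligned to GRCm38 with an rRNA sequence and deduplicated. The deposited values are a signed score of strand imbalance (points) made by the authors for each library separately; the program and any minimum of reads are not given in the sources used here. All value columns were used. The index in the label of WT replicate 2 differs from that in its column name, and the column was matched by genotype and replicate number.

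Analyses used full-length autosomal windows with a value in all 4 libraries (94694, of which 23672 do not overlap). Tests across windows used limma 3.58.1 in R 4.3.3 (lmFit, eBayes) with Benjamini-Hochberg adjustment over the whole table. For 1 value a library, two-sided exact permutation tests over the 4 libraries were used, whose smallest p-value is 0.333, and these are unadjusted. Replicate SD is pooled over both genotypes. Gene intervals are RefSeq's for GRCm38.p6. All 9 members are named; genes of the other lists are named as the highest and lowest of their list. The members and lists were chosen with earlier results of these data known. On simulated data for the windows that do not overlap, limma recovered 99.5% of 200 windows shifted by 30 points, with 11 false calls. The widest KO minus WT difference at the member loci was smaller, at 19.9 points. Both genotypes were simulated with the same spread, and recovery of smaller shifts was not tested. Alternatives were other window sets, distances, scales, fits, running means and omission of each library. Scripts ran under Python 3.11.15 with scipy 1.17.1, pandas 2.3.3 and numpy 2.4.6, and figures were drawn in matplotlib 3.10.9.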

Additional observations from a re-analysis of the deposited data

How the results depend on the processing

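Omission of a library aside, 30 of 38 alternatives for the main results were counted as unchanged. That meant the same direction, a count within 1.5 times, or a median absolute difference that moved by less than the median replicate SD. Some could not come out otherwise. On the atanh scale 0 of all 23672 windows passed, and subsets of the Smarca5 windows, all with a value, could only give 0 missing. For the single gene windows 44 of 45 kept the direction. The gene window of Cecr2 reversed to 0.670 points when averaged over the gene interval. Alternatives on overlapping windows other than the plain limma fit were chosen after seeing the data. Against 0 member windows passing, 3 passed on overlapping windows with limma's trend and robust options, all at Rsf1. Without each library in turn from 0 to 15 passed. Both genotypes have replicates numbered 1 and 2, but nothing says whether the numbers pair cultures. Deviations of same-numbered libraries correlated positively, at 0.241 over windows. Replicate 1 had the wider SD in both genotypes (14.6 against 12.8 points in WT, 19.5 against 14.5 in KO). Whether cultures were paired was not tested. With the replicate block 3 windows passed (2 at Rsf1 and 1 at Smarca5; 2.66% of all windows), with the block and each library standardised 1 (3.62% of all), with the block on overlapping windows 9 (2.67% of all), and with both 8 (3725 of all 94694). Of the windows named above, the block gave limma adjusted p-values of 0.0152 at Smarca5 (0.0485 standardised), 0.0302 at Baz1a and 0.00223 at Rsf1, and of 0.0464 at Chrac1 when standardised. On windows spaced 100 kb the genotype difference in windows without a value was 0 rather than 1. With each library standardised, the median absolute difference was 0.207 SD, a change of unit, and the mean rise, with rises called again on that scale, reversed to -0.0326 SD from 8.70 points. The cause was not tested. Without each library in turn, the gene window differences ranged from -3.99 to 6.32 points at Baz1a, from -0.299 to 10.9 points at Baz2a, from -6.21 to 2.05 points at Chrac1, from -4.62 to 1.96 points at Cecr2, from -11.4 to -0.113 points at Bptf, from -10.2 to -2.90 points at Pole3, from 4.37 to 11.3 points at Baz1b, from 7.49 to 11.3 points at Rsf1 and from -9.05 to -4.72 points at Smarca5. The amplitude difference ranged from 1.53 to 6.58 points and that of the rises from 1.71 to 15.1 points. Depth is unknown, and a permutation test on 4 libraries cannot pass 0.05.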
